A study of Mus musculus with 7 samples.

Results

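The genes described here are those of the mitochondrial ribosomal proteins, the protein-coding genes of the count table whose symbol is Mrpl or Mrps, a number and at most 1 further letter. There were 77 such genes among the 21615 of the table, and all 77 passed the filter on low counts. RNA was sequenced from megakaryocyte progenitors (MkPs), bone marrow cells committed to make platelets, that were sorted from wild-type C57BL/6 mice as lin- CD117+ Sca-1- CD150+ CD41+ cells. The sort was split by surface CD48 into CD48-/lo MkPs (3 libraries, replicates 1, 3 and 4) and CD48hi MkPs (4 libraries, replicates 1, 3, 4 and 5), the subsets the study set against each other to compare routes of platelet formation. Both groups came from marrow of the same strain, and the labels name no treatment. The labels give neither the age of the mice nor how many contributed to a library, so p-values measure the spread between libraries, which may be technical.

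Mitochondria keep a genome of their own, and its few mRNAs, which encode core subunits of the respiratory chain, are translated by a separate ribosome inside the organelle. The ribosomal RNAs of this mitoribosome are made from mitochondrial DNA, while its proteins are encoded in the nucleus, made in the cytosol and imported. The large subunit (Mrpl genes) joins amino acids at the peptidyl transferase centre and releases the chain through an exit tunnel at the inner membrane, and the small subunit (most Mrps genes) binds and decodes the mRNA. Some of the proteins descend from those of the bacterial ribosome and others were added in mitochondria. Megakaryocytes and their precursors use mitochondria for energy and pass them on to platelets.

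Total counts were between 48899037 and 51161449 in the CD48-/lo libraries and between 51537445 and 69324909 in the CD48hi libraries. The sorts yielded 5348 to 6497 cells for each CD48-/lo library and 14033 to 20826 for each CD48hi library, so that cell number and subset cannot be told apart. Megakaryocyte markers were abundant in all libraries, with 10 of 10 measured and a summed level of 4008 to 6968 CPM (counts scaled to a common library size) in CD48-/lo and of 4308 to 5296 CPM in CD48hi libraries. Pf4, a platelet chemokine, averaged 2960.0 CPM in CD48-/lo and 1478 CPM in CD48hi MkPs, and Itga2b, which encodes CD41, averaged 843 CPM in CD48-/lo and 1372 CPM in CD48hi MkPs. Summed levels of 10 erythroid markers were 260.3 to 599 CPM in CD48-/lo and 109 to 181 CPM in CD48hi libraries. Those of 10 granulocyte and monocyte markers were 60.8 to 162 CPM in CD48-/lo and 407 to 603 CPM in CD48hi libraries, and those of 6 basophil and mast cell markers 169 to 232 CPM in CD48-/lo and 263 to 783 CPM in CD48hi libraries. Only 2 of 6 lymphoid and 2 of 5 stromal and endothelial markers passed the filter, and of the defining markers Dntt was at 0 in the CD48-/lo libraries. Whether these cells contribute to the levels of the mitochondrial ribosomal protein genes was not tested.

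All 77 genes were expressed in every library, the smallest count being 184 and the largest 24843 reads. As a set they held 0.747%, 0.793% and 0.812% of the counts in CD48-/lo replicates 1, 3 and 4, against 0.954%, 0.739%, 0.599% and 0.521% in CD48hi replicates 1, 3, 4 and 5. On the CPM scale, adjusted for library composition by TMM factors, the summed level was 7156, 7742 and 8029.9 CPM in CD48-/lo replicates 1, 3 and 4, and 10204, 7007, 6548 and 5102 CPM in CD48hi replicates 1, 3, 4 and 5. The CD48-/lo libraries thus lay inside the range of the CD48hi libraries, with means of 7643 ± 445 CPM (SD, n = 3) in CD48-/lo and 7215 ± 2151 CPM (SD, n = 4) in CD48hi MkPs. Sorted populations do not show whether a lower level means fewer cells of a kind or less RNA per cell, and the 2 cannot be told apart in these bulk libraries. Large subunit genes (50) summed to 5201 ± 325 CPM in CD48-/lo and 4758 ± 1538 CPM in CD48hi MkPs, and small subunit genes (26) to 2424 ± 149.9 CPM in CD48-/lo and 2448 ± 615 CPM in CD48hi MkPs (SD, n = 3 and 4). The remaining gene, Mrps36, carries the family symbol but encodes a component of the oxoglutarate dehydrogenase complex.

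**Figure D1:**
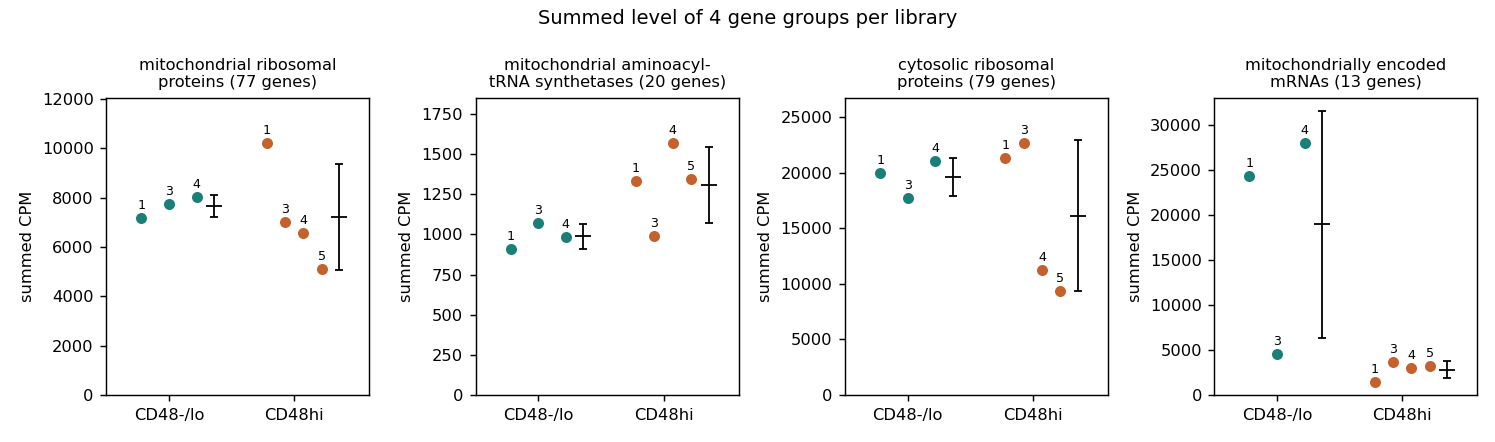
Summed level (CPM, linear axis from 0) of 4 gene groups in each library, CD48-/lo left of CD48hi, with the replicate number above each point and a bar for the mean ± SD. The CD48-/lo libraries sit between 7156 and 8029.9 CPM for mitochondrial ribosomal proteins, inside the CD48hi range of 5102 to 10204 CPM, while the mitochondrially encoded mRNAs reach 24351 and 28008 CPM in CD48-/lo replicates 1 and 4 only.

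The spread between libraries was much wider in CD48hi than in CD48-/lo MkPs. The SD of the log2 level was larger in CD48hi libraries for 72 of 77 genes (93.5%, against 67.5% of all genes tested). The levels of 55 genes stayed within a 1.5-fold range over the CD48-/lo libraries, and those of 2 genes did so over the CD48hi libraries. A range over 4 libraries tends to be wider than one over 3. CD48hi replicate 1 was the highest library for 38 of the 77 genes (49.4%, against 15.9% of all genes tested). CD48hi replicate 5 was the lowest for 45 (58.4%, against 18.9% of all genes tested), and for 35 genes both extremes were CD48hi libraries. CD48hi replicates 4 and 5 lay together below every other library in 50 genes and together above every other library in 5. CD48-/lo replicate 3 was never the highest or the lowest library, where it was the highest for 7.69% and the lowest for 9.66% of all genes tested. The share over all genes was not taken for the counts of 1.5-fold ranges, of extremes that were both CD48hi and of replicates 4 and 5 together.

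Libraries that carry the same replicate number differed by unequal amounts. Over the 77 genes the median absolute log2 difference between CD48-/lo and CD48hi libraries was 0.82 at replicate 1, 0.23 at replicate 3 and 1.05 at replicate 4. An absolute log2 difference above 1 was found for 28 genes at replicate 1, for 0 genes at replicate 3 and for 41 genes at replicate 4. The sign of the median was not shared either, being -0.63 at replicate 1, 0.12 at replicate 3 and 0.77 at replicate 4 (CD48-/lo over CD48hi). These values were not taken over all genes, so they do not set the 77 genes apart. The labels do not say that a number marks a shared animal or day.

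**Figure D2:**
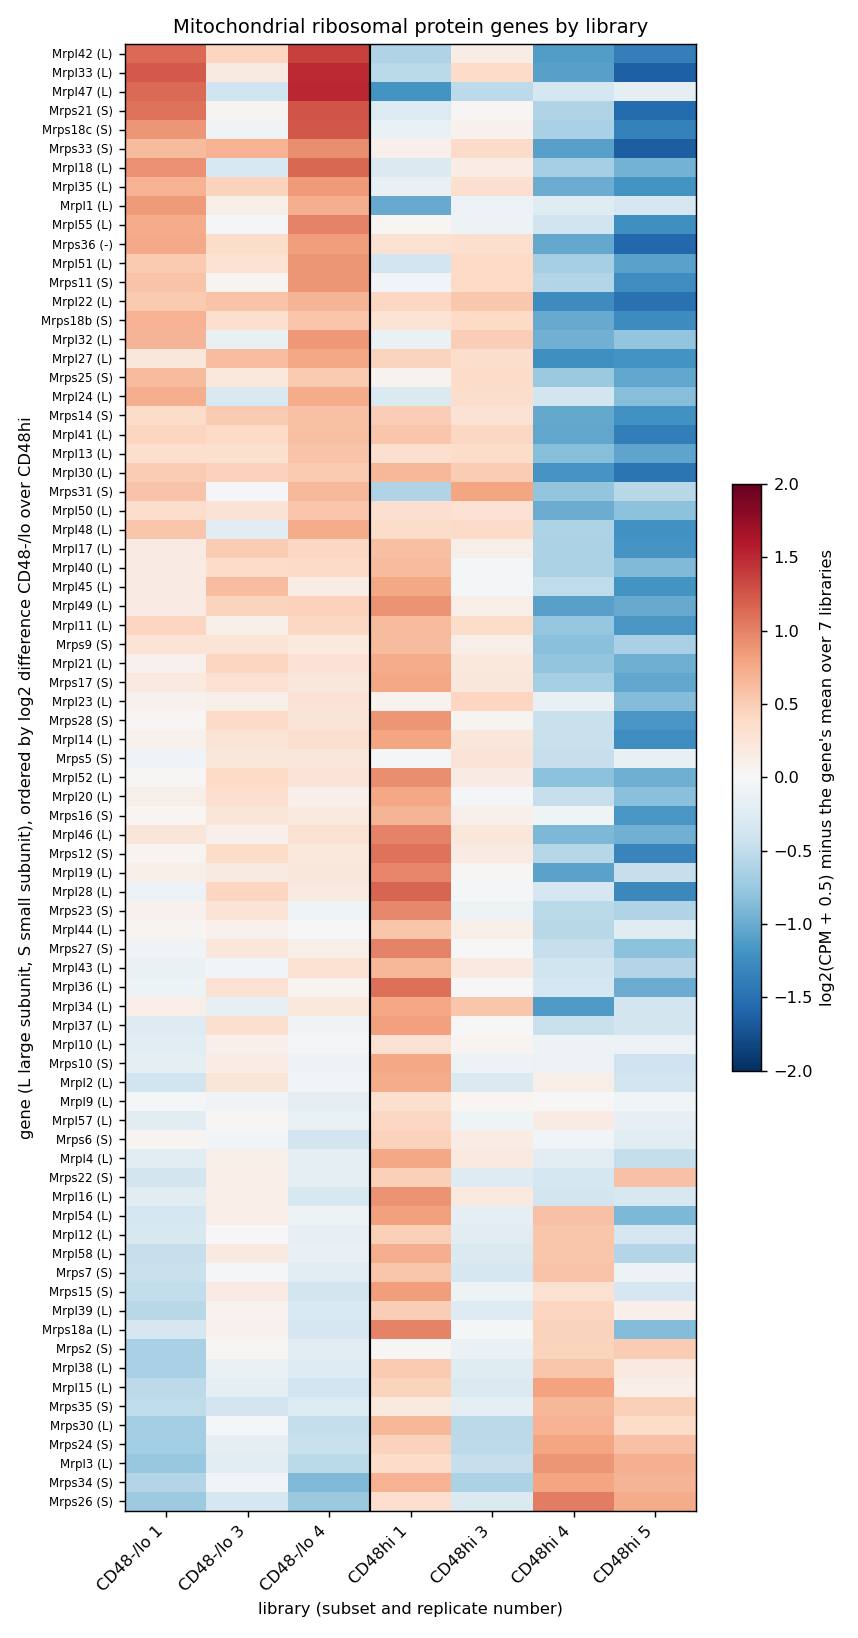
Level of each of the 77 genes (rows, ordered by log2 difference) in the 7 libraries (columns, CD48-/lo left of the black line and CD48hi right of it), as log2(CPM + 0.5) minus the mean of that gene over the libraries, red above and blue below. CD48hi replicates 4 and 5 are blue in the upper rows and red in the bottom rows, CD48hi replicate 1 is red in most middle rows, and the replicate 3 libraries of both subsets are pale.

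None of the 77 genes passed the edgeR quasi-likelihood test at a Benjamini-Hochberg adjusted p of 0.05 over 16653 genes (0 of 77), where 32 genes passed in all (0.192%, of which 0.0841% higher and 0.108% lower in CD48-/lo MkPs). At an unadjusted p under 0.05 there were 17 of the 77 genes (22.1%), 11 with a higher and 6 with a lower level in CD48-/lo MkPs, against 17.2% of all genes tested (8.37% higher and 8.87% lower). The groups did not overlap for 8 genes (10.4%, against 14.6% of all genes, 7.52% above and 7.06% below), namely Mrpl42, Mrps21, Mrpl1, Mrpl35, Mrps33 and Mrps36 above and Mrps26 and Mrps35 below the CD48hi libraries. The log2 difference (CD48-/lo over CD48hi) was above 0 for 47 of the 77 genes, where 51.7% of all genes were above 0, and its median was 0.20 against 0.03 for all genes. The difference of mean log2 levels exceeded the pooled SD within groups for 39 of the 77. This count is not a test, and its share over all genes was not taken, so it does not set these genes apart.

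These summary values rested on single libraries. The median of the 77 genes was -0.03 without CD48hi replicate 5 and also -0.03 without CD48-/lo replicate 3, and it was 0.55 without CD48hi replicate 1. When CD48hi replicates 4 and 5 were both left out, a comparison chosen after the data were seen, the median was -0.26 and 25 of 77 genes were above 0. No gene of the whole table was then called by edgeR. At an unadjusted edgeR p under 0.05 there were 7 of the 77 genes, where 10.5% of all genes were under it. DESeq2 called 5 of the 77 genes (Mrpl33, Mrpl42, Mrpl47 and Mrps21 higher and Mrps26 lower in CD48-/lo MkPs) where it called 5.51% of all genes (2.46% higher and 3.05% lower). limma-voom with sample quality weights called 5 (Mrpl33, Mrpl35, Mrpl42 and Mrps21 higher and Mrps26 lower) where it called 2.36% of all genes. At an unadjusted limma-voom p under 0.05 there were 40 of the 77 genes, where 31.4% of all genes were under it.

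Among the genes with higher mean levels in CD48-/lo MkPs, Mrpl42 had the smallest p. It encodes a large subunit protein without a bacterial counterpart (chromosome 10, 95480805 to 95501940, mm10). Mrpl42 was at 231 CPM, 142 CPM and 272.0 CPM in CD48-/lo replicates 1, 3 and 4, and at 69.6, 116.9, 48.5 and 40.6 CPM in CD48hi replicates 1, 3, 4 and 5. All CD48-/lo libraries lay above all CD48hi libraries, with the replicate 3 libraries nearest to each other. The log2 difference was 1.64 ± 0.40 (SE) with an adjusted p of 0.117 by edgeR and of 0.00461 by DESeq2.

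Mrpl33 (chromosome 5), the counterpart of bacterial bL33, was at 100.4, 48.5 and 121 CPM in CD48-/lo replicates 1, 3 and 4, and at 29.0, 54.9, 19.7 and 13.5 CPM in CD48hi replicates 1, 3, 4 and 5. CD48-/lo replicate 3 lay below CD48hi replicate 3, so the groups overlapped, and the log2 difference was 1.62 ± 0.48 (SE; adjusted p = 0.181 by edgeR and 0.0277 by DESeq2). The table interval of Mrpl33 overlaps Rbks on the other strand. Mrpl47 (chromosome 3), the counterpart of bacterial uL29 beside the exit tunnel, was at 57.5, 19.6 and 74.6 CPM in CD48-/lo replicates 1, 3 and 4, and at 11.1, 17.9, 20.2 and 22.8 CPM in CD48hi replicates 1, 3, 4 and 5. Again the 2 libraries of replicate 3 were close together, and the log2 difference was 1.49 ± 0.44 (SE; adjusted p = 0.177 by edgeR and 0.0300 by DESeq2). Mrpl47 overlaps Ndufb5 and Actl6a on the other strand, and since it is not given whether counting used strand, reads of such neighbours cannot be told apart. In all, 21 of the 77 genes overlap a protein-coding gene on the other strand.

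Mrps21 (chromosome 3), the counterpart of bacterial bS21, was at 75.6, 36.5 and 84.8 CPM in CD48-/lo replicates 1, 3 and 4, and at 29.1, 35.7, 22.9 and 11.8 CPM in CD48hi replicates 1, 3, 4 and 5. Here CD48-/lo replicate 3 was just above CD48hi replicate 3, and the log2 difference was 1.40 ± 0.41 (SE; adjusted p = 0.180 by edgeR and 0.0373 by DESeq2). Mrpl1 (chromosome 5), the protein of the mobile stalk beside the exit site of tRNAs, was at 74.5, 44.8 and 68.2 CPM in CD48-/lo replicates 1, 3 and 4, and at 20.3, 37.8, 34.7 and 32.4 CPM in CD48hi replicates 1, 3, 4 and 5. Its groups did not overlap, with a log2 difference of 1.00 ± 0.31 (SE; edgeR adjusted p = 0.188).

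Mrps18c belongs to a family of 3 paralogues of bacterial bS18 that sit at different places of the mitoribosome. Mrps18c was at 76.2, 38.9 and 97.2 CPM in CD48-/lo replicates 1, 3 and 4, and at 37.4, 43.4, 26 and 15.7 CPM in CD48hi replicates 1, 3, 4 and 5, with a log2 difference of 1.21 ± 0.41 (SE; edgeR adjusted p = 0.212). Mrps18b, also of the small subunit, was at 40.5, 31.5 and 36.9 CPM in CD48-/lo replicates 1, 3 and 4, and at 30.1, 33.0, 12.1 and 10.2 CPM in CD48hi replicates 1, 3, 4 and 5. Mrps18a, whose protein is part of the large subunit, was at 84.3, 112.8 and 84.3 CPM in CD48-/lo replicates 1, 3 and 4, and at 212.6, 103.9, 147.0 and 58.1 CPM in CD48hi replicates 1, 3, 4 and 5. The log2 differences of Mrps18b (0.77 ± 0.43) and Mrps18a (-0.47 ± 0.40) had edgeR adjusted p of 0.374 and 0.563, and the groups overlapped for both genes. The table interval of Mrps18a overlaps Rsph9, a protein-coding gene, and that of Mrps18b the noncoding Gm16279, each on the other strand. Whether the 3 paralogues differ from one another in their response was not tested.

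**Figure D3:**
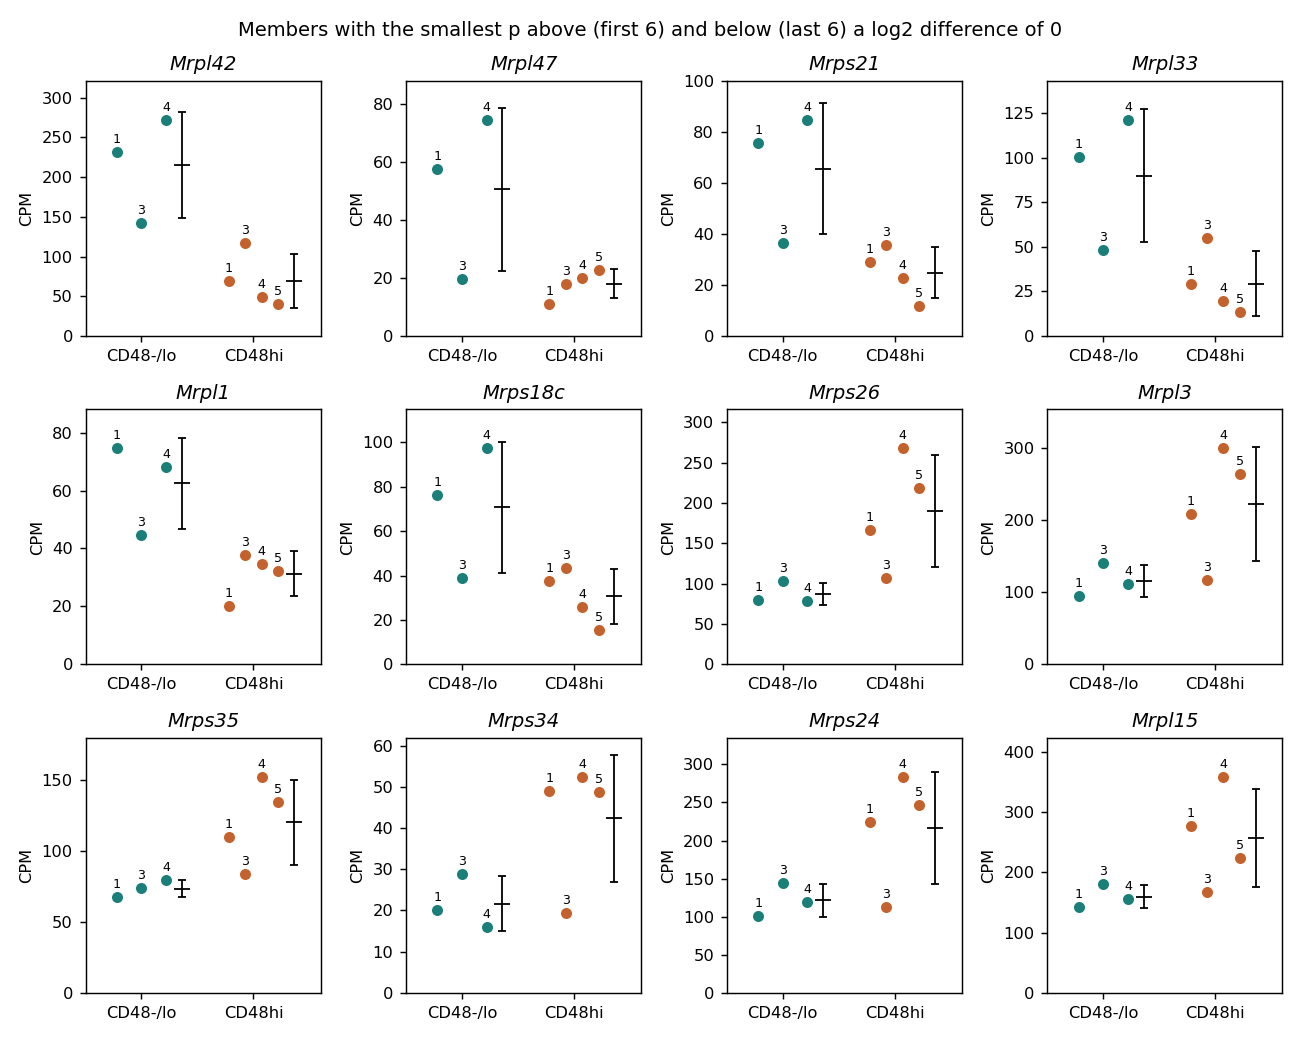
Levels (CPM, linear axes from 0) of the 6 genes with the smallest p above and the 6 with the smallest p below a log2 difference of 0, one point per library with its replicate number, CD48-/lo left of CD48hi, and a bar for the mean ± SD. Mrpl42 spans 142 to 272.0 CPM in CD48-/lo and 40.6 to 116.9 CPM in CD48hi libraries, and in most panels the points numbered 3 of the 2 subsets lie close to each other.

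Mrps26, which encodes a small subunit protein added in mitochondria, had the smallest p among the genes with lower mean levels in CD48-/lo MkPs. Mrps26 (chromosome 2, 130563742 to 130568695, mm10) was at 79.6, 103.1 and 78.6 CPM in CD48-/lo replicates 1, 3 and 4, and at 166.5, 107.4, 267.6 and 219.1 CPM in CD48hi replicates 1, 3, 4 and 5. The highest CD48-/lo library and the lowest CD48hi library, both replicate 3, were 103.1 and 107.4 CPM. The log2 difference was -1.13 ± 0.34 (SE) with an adjusted p of 0.181 by edgeR and of 0.0267 by DESeq2. Mrpl3, which reaches into the peptidyl transferase centre and is the counterpart of bacterial uL3, was at 95.4, 140.4 and 111.3 CPM in CD48-/lo replicates 1, 3 and 4, and at 208.8, 117.7, 299.7 and 264.5 CPM in CD48hi replicates 1, 3, 4 and 5. CD48hi replicate 3 lay among the CD48-/lo libraries, and the log2 difference was -0.94 ± 0.35 (SE; edgeR adjusted p = 0.234).

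Mrps35, a mitochondrial addition to the small subunit, was at 67.7, 73.6 and 79.5 CPM in CD48-/lo replicates 1, 3 and 4, and at 110.1, 84.0, 152.3 and 134.3 CPM in CD48hi replicates 1, 3, 4 and 5. The groups did not overlap, and the log2 difference was -0.71 ± 0.28 (SE; edgeR adjusted p = 0.255). Mrps34, a mitochondrial addition needed for a stable small subunit, was at 20.0, 28.9 and 16.1 CPM in CD48-/lo replicates 1, 3 and 4, and at 49.0, 19.4, 52.4 and 48.7 CPM in CD48hi replicates 1, 3, 4 and 5. CD48hi replicate 3 stood apart from the other CD48hi libraries and among the CD48-/lo ones (log2 difference -0.97 ± 0.39, SE; edgeR adjusted p = 0.257), and the gene overlaps Mapk8ip3 on the other strand.

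Mrps24, the counterpart of bacterial uS3, was at 100.4, 144.1 and 119.5 CPM in CD48-/lo replicates 1, 3 and 4, and at 224.8, 112.8, 283.5 and 246.4 CPM in CD48hi replicates 1, 3, 4 and 5 (log2 difference -0.84 ± 0.34, SE; edgeR adjusted p = 0.257). Mrpl15, the counterpart of bacterial uL15, was at 142.4, 181.0 and 156.5 CPM in CD48-/lo replicates 1, 3 and 4, and at 277.6, 168.0, 358.5 and 224.2 CPM in CD48hi replicates 1, 3, 4 and 5 (log2 difference -0.68 ± 0.30, SE; edgeR adjusted p = 0.285). The table interval of Mrps24 overlaps Urgcp on the same strand. In both genes 3 of the 4 CD48hi libraries lay above all CD48-/lo libraries and CD48hi replicate 3 lay within them. CD48hi replicate 3 was the lowest CD48hi library in all 6 genes with a lower CD48-/lo mean at an unadjusted p under 0.05. Among the 11 with a higher CD48-/lo mean it was the highest CD48hi library in 9, and CD48-/lo replicate 3 was the lowest CD48-/lo library in 10. The share over all genes was not taken for these counts. Over all genes tested the replicate 3 libraries were also the least often extreme. CD48hi replicate 3 was the lowest library for 8.56% and the highest for 9.51% of all genes, and CD48-/lo replicate 3 for 9.66% and 7.69%.

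Promoters of 4 genes with small p in either direction and of Mrpl12, for its match, were read to show what sequence lies before them. The RefSeq promoter table (GRCm38.p6) held 68 of the 77 genes, 3 of them with more than 1 start, and the 250 bases before the start were searched on both strands for the letters of NRF1, a regulator of nuclear genes for mitochondrial proteins (GCGC, then A and N, then GCGC), of the ETS family, which includes GABP (CCGGAAG), and of YY1 (AAGATGGCG). The ETS letters were found in 17 of 68 genes (25%, against 7.83% of 27025 genes in the table), the NRF1 letters in 10 (14.7%, against 4.23%) and the YY1 letters in 2 (2.94%, against 0.71%). At least 1 of the 3 was found in 28 of 68 genes (41.2%, against 11.8% of all genes), in 15 of 44 with a log2 difference above 0 and in 13 of 24 with one below 0. The 27025 genes are all those with a listed promoter, whether or not expressed in these cells, while all 77 genes were expressed. The shares are thus not between sets of like expression, and a background of expressed genes was not counted. A match is not a binding site, and no match says only that these letters are absent from the window. The following promoters, printed 5′ to 3′ with a match in capitals (as its reverse complement where it lies on the other strand), show an NRF1 match (Mrps21, chr3:95871515-95871764, minus strand; Mrpl12, chr11:120484387-120484636, plus strand), an ETS match near the start (Mrps26, chr2:130563507-130563756, plus strand; Mrpl3, chr9:105053018-105053267, plus strand) and none of the 3 (Mrpl42, chr10:95501950-95502199, minus strand).
Mrps21: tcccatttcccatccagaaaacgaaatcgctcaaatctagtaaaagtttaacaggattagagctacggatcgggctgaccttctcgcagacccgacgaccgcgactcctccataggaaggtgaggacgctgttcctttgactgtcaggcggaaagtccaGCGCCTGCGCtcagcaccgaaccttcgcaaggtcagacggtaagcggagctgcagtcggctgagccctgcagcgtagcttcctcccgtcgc
Mrpl12: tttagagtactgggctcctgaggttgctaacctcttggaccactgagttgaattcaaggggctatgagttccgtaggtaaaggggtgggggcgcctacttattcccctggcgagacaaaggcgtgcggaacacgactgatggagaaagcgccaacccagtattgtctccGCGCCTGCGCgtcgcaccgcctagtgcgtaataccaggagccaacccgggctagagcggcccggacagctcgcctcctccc
Mrps26: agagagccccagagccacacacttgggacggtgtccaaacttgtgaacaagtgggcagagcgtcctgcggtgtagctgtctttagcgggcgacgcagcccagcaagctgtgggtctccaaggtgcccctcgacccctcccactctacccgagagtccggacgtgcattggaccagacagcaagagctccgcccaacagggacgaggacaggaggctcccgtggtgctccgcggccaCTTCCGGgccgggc
Mrpl3: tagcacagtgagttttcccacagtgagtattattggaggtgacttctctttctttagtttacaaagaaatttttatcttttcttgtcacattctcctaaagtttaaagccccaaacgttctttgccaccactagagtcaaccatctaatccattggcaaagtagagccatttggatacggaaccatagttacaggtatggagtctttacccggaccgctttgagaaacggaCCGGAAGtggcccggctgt
Mrpl42: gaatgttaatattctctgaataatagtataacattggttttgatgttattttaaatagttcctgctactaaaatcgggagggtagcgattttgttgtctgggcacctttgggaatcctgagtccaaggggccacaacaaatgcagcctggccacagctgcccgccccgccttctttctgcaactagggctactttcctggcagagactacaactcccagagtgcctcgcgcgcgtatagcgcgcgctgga
The match began 91 bases before the RefSeq start in Mrps21 and 81 in Mrpl12, with the same 10 letters in both, and 14 bases before it in Mrps26 and 19 in Mrpl3. Mrps21 and Mrpl12, which share the NRF1 letters, had log2 differences of 1.40 and -0.33, and Mrps26 and Mrpl3, which share the ETS letters, -1.13 and -0.94. The 2 ETS examples do not stand for the rest. Of the 17 genes with the ETS letters 9 were above 0 and 8 below 0. These are 20.5% of the 44 genes above 0 and 33.3% of the 24 below 0, and the shares were not tested against each other. Mrps18c, also with the ETS letters, was at 1.21.

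Level and position in the particle were then set side by side. Per kb of gene length (all exons of a gene, as the table gives it), the 77 genes ranged from 1.25 CPM for Mrpl23 to 184 CPM for Mrpl54, with medians of 34.7 CPM per kb in the large and 30.3 CPM per kb in the small subunit. Mrpl54, Mrpl36 and Mrpl12 were highest in the large subunit. Their place rests in part on length, which was 825, 1161 and 1532 bases for these genes and 2533 bases at the median of the 77. Mrpl54, a mitochondrial addition, had 161 CPM per kb in CD48-/lo and 201 CPM per kb in CD48hi MkPs. Its levels were 110.8, 155.7 and 131.8 CPM in CD48-/lo replicates 1, 3 and 4, and 249.5, 125.5, 212.4 and 75.3 CPM in CD48hi replicates 1, 3, 4 and 5, so that the CD48hi libraries enclosed the CD48-/lo ones.

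Mrpl36, the counterpart of bacterial bL36, was at 166.6, 220.5 and 186.4 CPM in CD48-/lo replicates 1, 3 and 4, and at 383.3, 178.7, 140.0 and 90.3 CPM in CD48hi replicates 1, 3, 4 and 5. Its log2 difference of -0.05 ± 0.44 changed sign without CD48hi replicate 1 (0.42), with library totals in place of scaling factors (0.03) and in limma-voom (0.31). Mrpl12, the factor-binding stalk protein of the large subunit, was at 184.4, 231.4 and 205.5 CPM in CD48-/lo replicates 1, 3 and 4, and at 320.9, 197.1, 337.8 and 183.1 CPM in CD48hi replicates 1, 3, 4 and 5 (log2 difference -0.33 ± 0.30, SE; edgeR adjusted p = 0.594). Its groups overlapped, as CD48hi replicates 1 and 4 lay above all CD48-/lo libraries and CD48hi replicates 3 and 5 did not.

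Mrpl47, described above, Mrpl48 and Mrpl23 were the lowest genes of the large subunit per kb. Mrpl48 was at 59.7, 34.8 and 67.7 CPM in CD48-/lo replicates 1, 3 and 4, and at 52.1, 52.9, 26.2 and 17.1 CPM in CD48hi replicates 1, 3, 4 and 5. Mrpl23, the exit tunnel protein uL23, was at 6.29, 6.45 and 7.28 CPM in CD48-/lo replicates 1, 3 and 4, and at 6.22, 8.09, 5.28 and 2.99 CPM in CD48hi replicates 1, 3, 4 and 5. Its level is uncertain, because the pseudogene Mrpl23-ps1 carried 104.0 to 128.8 CPM in CD48-/lo and 23.7 to 118.8 CPM in CD48hi libraries, and reads that match both copies equally were not counted. Mrpl48 overlaps Rab6a on the other strand. Pseudogenes of Mrpl48 and Mrps36 were also counted, and those 2 genes are uncertain for the same reason.

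**Figure D4:**
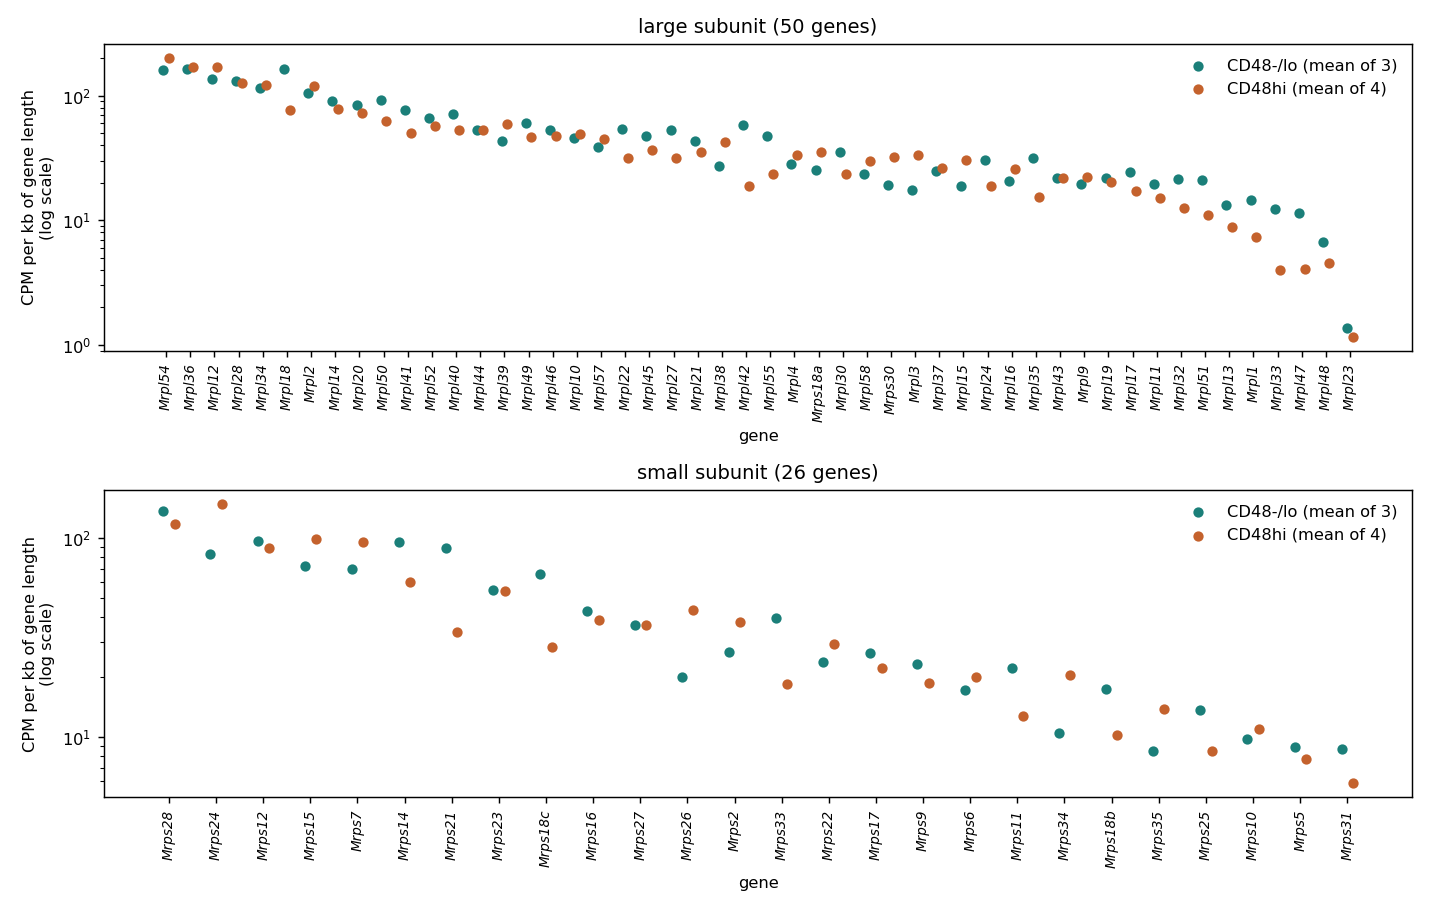
Level per kb of gene length (CPM per kb, log axis) of each large subunit gene (upper panel, 50 genes) and small subunit gene (lower panel, 26 genes), ordered from high to low, with the mean of the CD48-/lo libraries left of the mean of the CD48hi libraries. Levels run from 184 CPM per kb (Mrpl54) to 1.25 CPM per kb (Mrpl23) over all libraries, and the gap between the points of a gene is small beside this range.

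In the small subunit Mrps28, Mrps24 and Mrps12 were highest per kb and Mrps10, Mrps5 and Mrps31 lowest. The lengths used were 783, 1466 and 1040 bases for the first 3 and 8079, 6578 and 3291 bases for the last 3. The order thus rests in part on length. Mrps28 was at 93.1, 119.5 and 109.1 CPM in CD48-/lo replicates 1, 3 and 4, and at 167.9, 94.9, 66.8 and 40.3 CPM in CD48hi replicates 1, 3, 4 and 5. Mrps12, the protein of the decoding centre, was at 89.8, 111.7 and 100.3 CPM in CD48-/lo replicates 1, 3 and 4, and at 183.1, 96.4, 57.8 and 34.3 CPM in CD48hi replicates 1, 3, 4 and 5. In both genes CD48hi replicate 1 was above and CD48hi replicates 4 and 5 below every CD48-/lo library. Their log2 differences of 0.21 ± 0.42 and 0.11 ± 0.48 changed sign without CD48hi replicate 5 (-0.03 and -0.16) and without CD48-/lo replicate 3 (-0.03 and -0.14).

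Mrps10, the counterpart of bacterial uS10, was at 71.5, 90.7 and 76.1 CPM in CD48-/lo replicates 1, 3 and 4, and at 139.7, 76.6, 75.6 and 61.4 CPM in CD48hi replicates 1, 3, 4 and 5. Its log2 difference of -0.15 ± 0.32 was 0.09 without CD48hi replicate 1. Mrps5, the counterpart of bacterial uS5, was at 50.7, 63.2 and 62.8 CPM in CD48-/lo replicates 1, 3 and 4, and at 52.5, 64.4, 39.1 and 48.5 CPM in CD48hi replicates 1, 3, 4 and 5. Mrps31, a mitochondrial addition, was at 31.9, 20.9 and 33.7 CPM in CD48-/lo replicates 1, 3 and 4, and at 13.9, 37.1, 12.1 and 14.3 CPM in CD48hi replicates 1, 3, 4 and 5. CD48hi replicate 3 alone reached the CD48-/lo level for Mrps31, and all 3 genes overlapped between the groups.

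A further pair of genes has roles of their own. Mrpl58, a peptidyl-tRNA hydrolase built into the large subunit that frees stalled chains, was at 61.7, 97.2 and 77.2 CPM in CD48-/lo replicates 1, 3 and 4, and at 142.4, 70.1, 125.5 and 57.0 CPM in CD48hi replicates 1, 3, 4 and 5, and overlaps the noncoding Ict1os on the other strand. Mrps36 was at 18.7, 14.1 and 19.9 CPM in CD48-/lo replicates 1, 3 and 4, and at 13.5, 13.9, 5.10 and 3.33 CPM in CD48hi replicates 1, 3, 4 and 5. Mrpl58 overlapped between the groups, while the lowest CD48-/lo library of Mrps36 was just above the highest CD48hi library. The log2 differences were -0.33 ± 0.37 for Mrpl58 and 0.97 ± 0.48 for Mrps36 (SE; edgeR adjusted p = 0.670 and 0.326).

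Grouped by place, the 50 large subunit genes had a median log2 difference of 0.21 with 31 above 0, and the 26 small subunit genes one of 0.13 with 15 above 0. Without CD48hi replicates 4 and 5 these medians were -0.25 and -0.29, and without CD48hi replicate 5 they were -0.01 and -0.12. Without CD48-/lo replicate 3 that of the small subunit was -0.09. Genes with a bacterial counterpart (46) had a median of 0.21, with 30 above 0, and the other 31 genes had one of 0.02, with 17 above 0. Those 31 are the genes added in mitochondria, Mrps36, and the bS18 paralogues Mrps18a and Mrps18b. All 6 exit tunnel genes (Mrpl17, Mrpl22, Mrpl23, Mrpl24, Mrpl45 and Mrpl47) were above 0, with a median of 0.59 and summed levels of 466, 473 and 522 CPM in CD48-/lo replicates 1, 3 and 4, and 489.7, 393, 239 and 170.2 CPM in CD48hi replicates 1, 3, 4 and 5. Of the 5 core genes around the peptidyl transferase centre only Mrpl27 was above 0 (0.76), and Mrpl2, Mrpl3, Mrpl4 and Mrpl16 lay between -0.94 and -0.17. Of the 5 central protuberance genes 4 were above 0 (median 0.42), and of the 4 stalk genes 2 were above 0 (median 0.14). These groups are small and were not tested against each other, and none of their genes was called by edgeR.

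The log2 difference also varied with level and base composition. The 30 genes that averaged 100 CPM or more had a median log2 difference of -0.13 with 13 above 0, and the 47 below it had one of 0.38 with 34 above 0. This average included more CD48hi than CD48-/lo libraries, so a high CD48hi level itself helps a gene over the cut. The same split was not made over all genes. Across the 77 genes Spearman's rho between the log2 difference and the GC content of the gene was -0.39, and across all genes tested it was -0.22, which describes genes of the same 7 libraries and not independent replicates. With length it was -0.08 for the 77 genes and -0.13 for all. With offsets for GC content and length the median of the 77 genes was 0.12, and the part of GC content in single differences was not tested further.

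Other genes of mitochondrial translation, from lists of related factors, were then set beside the mitochondrial ribosomal proteins. None of them was called by edgeR in any list. At an unadjusted p under 0.05 there were 3 assembly factors (12% of the list), 3 translation factors (18.8%), 3 genes of mitochondrial DNA upkeep (27.3%) and 3 regulators (33.3%), where 17.2% of all genes tested were under it. The 5 mitoribosome subunits that carry other symbols (Dap3, Ptcd3, Aurkaip1, Chchd1 and Gadd45gip1) had log2 differences between -0.33 and -0.09, with 0 of 5 at an unadjusted p under 0.05 and 0 called by DESeq2. Gadd45gip1 was at 45.2, 73.7 and 59.0 CPM in CD48-/lo replicates 1, 3 and 4, and at 118.7, 53.6, 71.4 and 53.8 CPM in CD48hi replicates 1, 3, 4 and 5, and Aurkaip1 averaged 119.6 ± 6.84 CPM in CD48-/lo and 144.0 ± 56.4 CPM in CD48hi MkPs. CD48hi replicate 1 was the highest library of Gadd45gip1, as it was for 38 of the 77 genes.

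The 25 assembly factors, which modify ribosomal RNA and guide subunit formation, had a median of -0.07 with 11 above 0. Noa1, a GTPase of mitoribosome assembly, was at 69.1, 91.4 and 61.1 CPM in CD48-/lo replicates 1, 3 and 4, and at 106.3, 94.8, 292.6 and 215.1 CPM in CD48hi replicates 1, 3, 4 and 5, and Fastkd2, which binds the large ribosomal RNA, averaged 107.0 CPM in CD48-/lo and 63.2 CPM in CD48hi MkPs. Neither overlapped between the groups (edgeR adjusted p = 0.207 and 0.223), and DESeq2 called Noa1 (adjusted p = 0.0417). In all, 4 of the 25 assembly factors did not overlap (16%, against 14.6% of all genes). The 16 translation factors had a median of -0.26 with 4 above 0 and 12 below 0. The smallest p were those of Mtrf1, a release factor homologue (1.03 ± 0.39), and Slirp, which stabilises mitochondrial mRNAs (1.33 ± 0.51, both edgeR adjusted p = 0.240). Both were above 0, against the direction of most of the list, and their groups overlapped. Only Mtif2 of the 16 (6.25%, against 14.6% of all genes) had groups that did not overlap, with the CD48-/lo libraries below. Its log2 difference was -0.57 ± 0.25 (edgeR adjusted p = 0.284).

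Mitochondrial aminoacyl-tRNA synthetases, which charge the tRNAs that the mitoribosome reads, had the lowest median among the lists of mitochondrial genes. Of 20 genes 16 were below 0, the median was -0.61, and 9 (45%, against 17.2% of all genes tested) reached an unadjusted p under 0.05, 8 of them below 0 (8.87% of all genes were below 0 at this p), while DESeq2 called none of the list. Their summed level was 912, 1068 and 984 CPM in CD48-/lo replicates 1, 3 and 4, and 1330.4, 993, 1568 and 1343 CPM in CD48hi replicates 1, 3, 4 and 5. CD48hi replicate 3 lay within the CD48-/lo range and the other 3 above it. Rars2, the arginine enzyme (log2 difference 0.83 ± 0.28), and Aars2, the alanine enzyme (-1.15 ± 0.41), had the smallest p in the list, with edgeR adjusted p of 0.210 and 0.229. Without CD48hi replicates 4 and 5 the list median was -0.37.

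The mRNAs that the mitoribosome translates showed another pattern over the libraries. The 13 mitochondrially encoded mRNAs summed to 24351, 4579 and 28008 CPM in CD48-/lo replicates 1, 3 and 4, and to 1430.5, 3653, 2940.5 and 3206 CPM in CD48hi replicates 1, 3, 4 and 5. CD48-/lo replicates 1 and 4 stood apart from the other 5 libraries, and CD48-/lo replicate 3 was near the CD48hi libraries. The log2 difference was above 0 for all 13, with a median of 2.62, and mt-Cytb (2.91 ± 0.50) and mt-Nd4 (3.01 ± 0.55) had edgeR adjusted p of 0.0501 and 0.0577. DESeq2 called 12 of the 13, where it called 5.51% of all genes. At an unadjusted edgeR p under 0.05 there were also 12 (92.3%, against 17.2% of all genes tested). The groups did not overlap for 8 of the 13 (61.5%, against 14.6% of all genes). In Mrpl42, Mrpl33, Mrpl47, Mrps21, Mrpl1 and Mrps18c CD48-/lo replicates 1 and 4 were also the 2 highest libraries. These genes were chosen for a small p and a higher CD48-/lo mean, which favours such an order. The order was not counted over the other mitochondrial ribosomal protein genes or over all genes. It therefore does not set the named genes apart. Whether the share of mitochondrial mRNA has a part in their differences was not tested.

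Nuclear genes for mitochondrial DNA upkeep and for regulators were measured as well. The 11 genes of mitochondrial DNA transcription and replication had a median of 0.30 with 7 above 0. Tefm, the elongation factor of mitochondrial transcription, had a log2 difference of 1.07 ± 0.36 and Polg, the mitochondrial DNA polymerase, of -1.56 ± 0.56 (SE; edgeR adjusted p = 0.211 and 0.225), and DESeq2 called Polg (adjusted p = 0.0434). Of 10 regulators 9 were tested, with a median of -0.43 and 2 above 0, and without CD48hi replicates 4 and 5 the median was 0.09. Myc, a growth regulator, was at 569, 548 and 539 CPM in CD48-/lo replicates 1, 3 and 4, and at 1132, 733, 733 and 976 CPM in CD48hi replicates 1, 3, 4 and 5 (edgeR adjusted p = 0.236), and Gabpb1, a subunit of GABP, averaged 189 CPM in CD48-/lo and 302 CPM in CD48hi MkPs (edgeR adjusted p = 0.258).

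**Figure D5:**
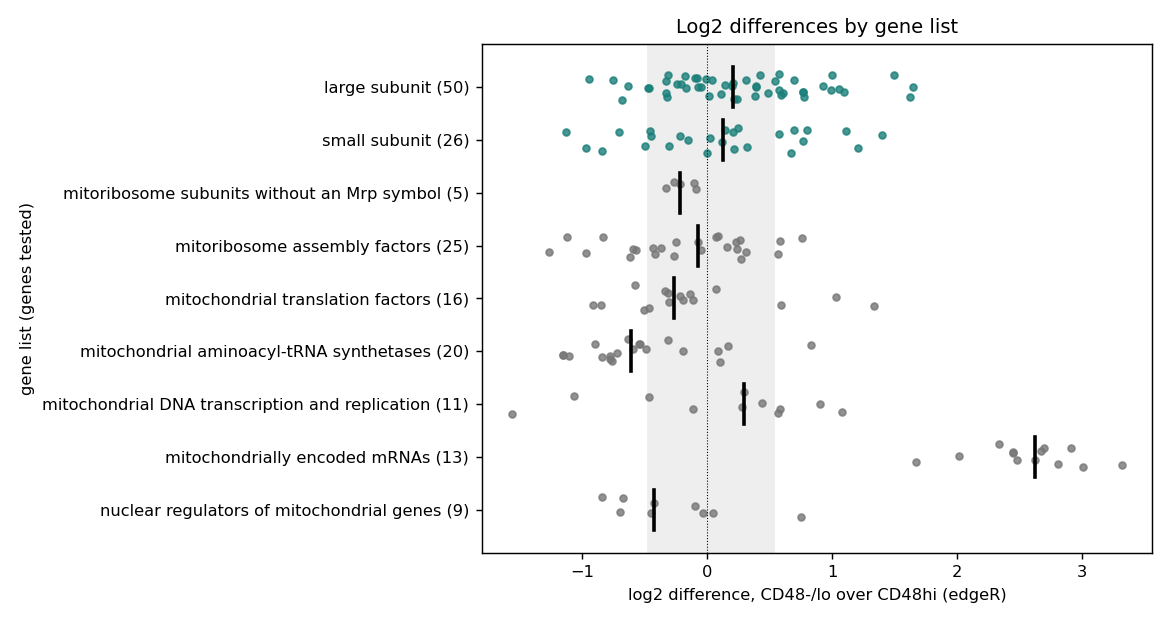
Log2 difference (CD48-/lo over CD48hi, edgeR) of each gene, one point per gene and one row per list, with large and small subunit genes in green, related lists in grey, a black bar at the list median and a grey band from the first to the third quartile of all genes tested. The subunit medians of 0.21 and 0.13 lie inside the band, the synthetase median of -0.61 lies below it and the median of 2.62 for mitochondrially encoded mRNAs lies above it.

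Cytosolic ribosomal proteins, the counterparts in the ribosome outside mitochondria, had a median log2 difference of 0.32 with 67 of 79 genes above 0. The median was -0.08 without CD48hi replicates 4 and 5. None was called by edgeR, 9 reached an unadjusted p under 0.05 (11.4%, against 17.2% of all genes tested), and DESeq2 called 1, where it called 5.51% of all genes. The called gene was Rps25, a small subunit protein, which averaged 105 ± 51.3 CPM in CD48-/lo and 39.9 ± 16.2 CPM in CD48hi MkPs (SD, n = 3 and 4) with overlapping groups (adjusted p = 0.183 by edgeR and 0.0362 by DESeq2). Rpl17, a large subunit protein, had the next smallest p, with a log2 difference of 1.46 ± 0.46 (SE; edgeR adjusted p = 0.195). Their summed level was 19997, 17749 and 21042 CPM in CD48-/lo replicates 1, 3 and 4, and 21309, 22641, 11199 and 9381 CPM in CD48hi replicates 1, 3, 4 and 5. As for the mitochondrial ribosomal proteins, CD48hi replicates 4 and 5 were the lowest libraries, but CD48hi replicate 3 was the highest here and CD48hi replicate 1 there.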

How the data were processed

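Bulk RNA of sorted mouse MkPs was sequenced after poly(A)-primed, template-switch cDNA synthesis, amplification and tagmentation. Per the labels and the methods of the study, the authors aligned reads with GSNAP (2020-12-16) to mm10 with Ensembl 98 splice sites, used featureCounts (2.0.1) to count reads with a unique alignment over each gene, and deposited raw counts. The strand setting of this step is not given in these sources. Gene length in bases and GC content in percent were taken as deposited by the authors in their tables. Their normalised, transformed and scaled values were not used.

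Counts were tested in R 4.3.3 with edgeR 4.0.16 (quasi-likelihood test, filterByExpr, TMM scaling, Benjamini-Hochberg adjustment). The filter kept 16653 of 21615 genes and 99.95% of counts, and library totals were 48899037 to 69324909. Groups followed the CD48 label of each library. CPM are counts scaled by library total and TMM factor. Errors of CPM are SDs, those of log2 differences (CD48-/lo over CD48hi, prior count 0.125) are SEs, and SDs of log2 levels used a pseudocount of 0.5. The alternatives were RLE scaling, library totals, other filters, DESeq2 1.42.0, limma 3.58.1 (voom), a replicate block, offsets for GC content and length (loess, span 0.3), thinning, leaving out mitochondrially encoded, haemoglobin and cytosolic ribosomal protein genes, leaving out each library, and a threshold of 0.1.

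The genes and lists were chosen with earlier results of these data known. Values per library are given for the 6 genes of each direction with the smallest p, the 3 highest and 3 lowest per kb in each subunit, the Mrps18 paralogues, Mrpl12, Mrpl58 and Mrps36, and the 2 genes of each related list with the smallest p are named. In the report, cytosolic ribosomal proteins are treated likewise, a choice made after their values were seen. Genes named beyond these, such as Mrpl35, Mrps33 and Mrpl27, were chosen after their values were seen. Tests were tried on simulated data first.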

Additional observations from a re-analysis of the deposited data

Results flagged for a closer look

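Of 77 genes and 25 list sums and list genes screened for a CD48hi library far from the other 3, 2 met the criterion (Dixon's 95% critical value for the gap to the nearest library as a share of the range of the group), and the criterion is met by chance in about 0.05 of such groups. Mrps34 was at 19.4 CPM in CD48hi replicate 3, against 48.7, 49.0 and 52.4 CPM in the other CD48hi libraries, a gap of 0.887 of the range. Mrps31 was at 37.1 CPM in CD48hi replicate 3, against 12.1, 13.9 and 14.3 CPM in the other CD48hi libraries, a gap of 0.911 of the range. In both genes CD48hi replicate 3 lay near the levels of the CD48-/lo libraries, and the cause was not tested.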

How the results depend on the processing

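The number of genes called over all genes was 32 and became 57 with RLE scaling, 10 with no filter, 64 with at least 1 CPM in 3 libraries, 918 with DESeq2, 393 with limma-voom, 73 with offsets for GC content and length, 0 without CD48hi replicates 4 and 5 (an alternative chosen after seeing the data) and 1 to 72 when single libraries were left out. Mitochondrial ribosomal protein genes called were 0 in edgeR, 5 in DESeq2, 5 in limma-voom and 0 in the other alternatives run. The labels do not pair the libraries, and the numbers were not taken to do so. The correlation of deviations between libraries of the same number was -0.15, -0.27 and -0.09, and so few values cannot decide whether the numbers mark pairs. With a replicate block 16 genes were called (13 with offsets for GC content and length added), 0 of them mitochondrial ribosomal protein genes. With the block 5 of the 77 genes were at an unadjusted edgeR p under 0.05 (7.57% of all genes tested were), against 17 without it. When single libraries were left out, this count ran from 5 (without CD48-/lo replicate 1, 11.2% of all genes) to 26 (without CD48hi replicate 3, 23.8%). The smallest edgeR adjusted p of the 77 was 0.423 with the block and 0.117 without it. The median log2 difference of mitochondrial ribosomal protein genes was 0.09 with the block. That median was 0.20, 0.58 in limma-voom, 0.27 with library totals, 0.12 with the offsets and -0.03 to 0.55 when single libraries were left out. Without CD48hi replicates 4 and 5 the median was -0.25 for the large subunit, -0.29 for the small subunit, -0.08 for cytosolic ribosomal proteins, -0.19 for assembly factors, -0.37 for synthetases and 0.0934 for regulators. The regulator median was -0.20 with the offsets and -0.19 with the offsets and the block, and the median of the mitochondrial DNA list was 0.0922 with both. When single libraries were left out, the median was -0.39 to -0.0474 for assembly factors and -0.58 to -0.0770 for regulators. The small subunit median was -0.06 with the offsets and the block, and that of assembly factors 0.02 with library totals. Of 11 list medians, 5 had the same sign under every alternative run. Of 40 named genes 35 kept their direction under the 19 alternatives run. Mrpl36 was at 0.0323 with library totals, 0.31 in limma-voom and -0.33 to 0.42 when single libraries were left out. Mrpl23 was at -0.11 without CD48hi replicates 4 and 5. Mrps28 was at -0.0733 with the offsets, -0.23 with the offsets and the block, -0.30 without CD48hi replicates 4 and 5 and -0.0349 to 0.61 when single libraries were left out. Mrps12 was at -8.906e-05 with the block, -0.0120 with the block and the offsets, -0.48 without CD48hi replicates 4 and 5 and -0.16 to 0.62 when single libraries were left out, and Mrps10 was at -0.41 to 0.0882 when single libraries were left out. The cause of these changes was not tested. Medians of mitochondrially encoded mRNAs and cytosolic ribosomal proteins have no value where those genes were left out. With 3 and 4 libraries and counts of 184 or more per gene, the spread between libraries, not counting error, limits the precision.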
